A study of Mus musculus with 9 samples.

Results

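The genes described here are 10 genes of fatty acid synthesis and desaturation, measured in whole kidneys of young and old mice. They were chosen by function (Acly, Acaca, Acacb, Fasn, Elovl5, Elovl6, Scd1, Scd2, Fads2 and Thrsp), and each had a probe set of its own among the 19938 genes that could be compared. The mice were wild type females of a mixed FVB/C57BL6 background, 4 at 14 weeks and 5 at 96 weeks, with 1 Affymetrix Mouse Gene ST array per mouse. The methods give a pelleted maintenance diet with free access to water, and kidneys were taken under anaesthesia after perfusion and frozen. The sources used here state neither the time of day nor the feeding state at that point. The labels number the samples as replicates and the p-values measure the spread between them. Values are log2 expression values after the robust multi-array average (RMA), so that a difference of 1 is a 2-fold change, and no signal over background was given. Levels were compared between arrays for 1 gene at a time. Between genes, age differences and deviations from the age means were set side by side, and levels were not. Of the tubule markers, Umod of the thick ascending limb read between 12.78 and 12.92 over all arrays and Lrp2 of the proximal tubule between 12.51 and 12.87. Other tubule markers were lower at 96 weeks at an unadjusted p under 0.05 in limma. Calb1 (log2 fold change -0.47) and Slc5a12 (-0.34) are among them, and all are given below with the other cell types. In whole tissue, fewer cells of a type and less RNA per cell cannot be told apart.

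Fatty acids are built in the cytosol from acetyl-CoA. ATP citrate lyase (Acly) makes the acetyl-CoA, the acetyl-CoA carboxylases Acaca and Acacb turn it into malonyl-CoA, and fatty acid synthase (Fasn) assembles palmitate. Elovl6 lengthens saturated chains, the stearoyl-CoA desaturases Scd1 and Scd2 make monounsaturated chains, and Fads2 and Elovl5 make long polyunsaturated chains from dietary fatty acids. Thrsp, a small protein that responds to thyroid hormone and carbohydrate, accompanies lipid synthesis in liver and fat. In the kidney, which burns fatty acids as its main fuel in the proximal tubule, the products also go into membrane phospholipids.

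Acly, Fads2 and Elovl5 were higher in old kidneys, by 1.35-fold, 1.28-fold and 1.28-fold, while Thrsp was 1.70-fold lower and did not pass after adjustment (adjusted p = 0.056 from limma). At an adjusted p under 0.05 in limma, 3 of the 10 genes were higher, against 4.31% of all genes tested. None was lower, against 2.40% of all genes, and 0 were lower or higher by the methods' t-test after adjustment. At an unadjusted p under 0.05 in limma, 4 of the 10 were higher (13.3% of all genes) and 1, Thrsp, was lower (15.3%). Over all genes, 860 were higher and 479 lower, and after a repeated quantile normalization 533 and 473. In 4 of the 10 genes every old kidney lay above every young one (7.49% of all genes), and in 1 every old kidney lay below (5.79%). By the study's rule of at least 1.5-fold with an unadjusted p under 0.05, only Thrsp passed, downwards (0.321% of all genes), and none passed upwards (1.28%). The median log2 fold change of the 10 genes was 0.19, against -0.03 over all genes tested. The 10 genes were chosen with earlier results known, so these counts are descriptions.

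**Figure D1:**
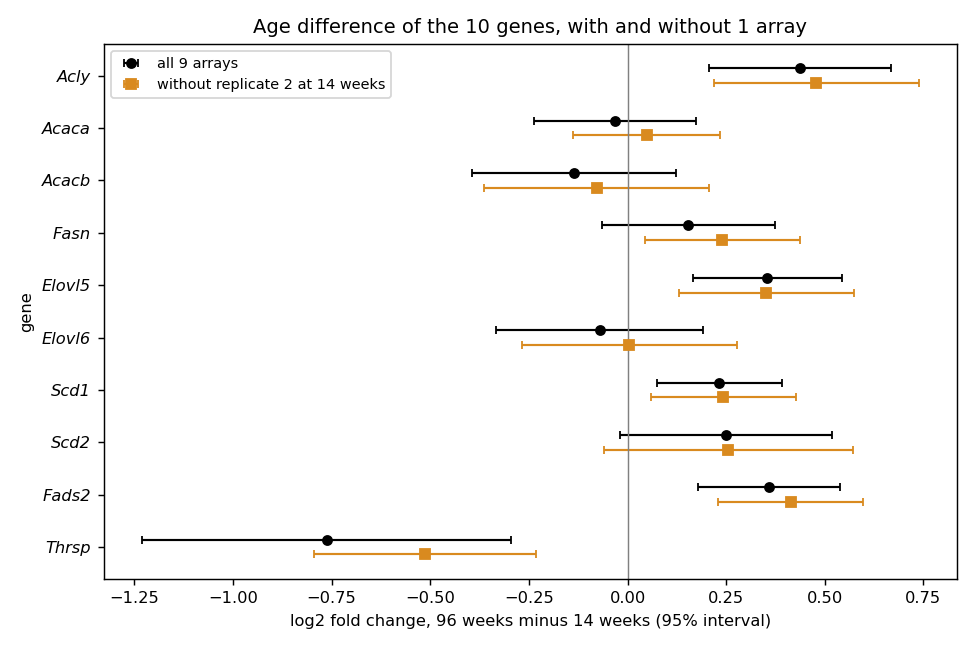
Log2 fold change (96 weeks minus 14 weeks) of each of the 10 genes, with its 95% interval from limma, over all 9 arrays (black circles) and without replicate 2 at 14 weeks (orange squares). The whole intervals of Acly, Elovl5, Scd1 and Fads2 lie to the right of 0 in both fits, and that of Fasn only without replicate 2 at 14 weeks. Thrsp lies furthest to the left and moves from -0.76 to -0.51.

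The bases before the starts of the 3 genes that rose and of Thrsp are printed to show how different these promoters are in composition. The sequences are the 250 bases before the RefSeq start in GRCm38.p6, 5′ to 3′ on the gene's strand. Capitals mark matches, on either strand, to an E-box, spelled CACGTG. They also mark a CCAAT box. A GC box, spelled GGGCGG, is marked as well. A sterol regulatory element (TCACNCCAC), the site of the Srebp factors, was searched as well.
Acly, chr11:100528001-100528250, minus strand: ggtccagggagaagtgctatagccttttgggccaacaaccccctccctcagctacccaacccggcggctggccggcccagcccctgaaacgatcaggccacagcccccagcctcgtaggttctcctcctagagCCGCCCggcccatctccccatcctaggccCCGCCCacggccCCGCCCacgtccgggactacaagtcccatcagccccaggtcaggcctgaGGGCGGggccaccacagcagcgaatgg
Fads2, chr19:10101504-10101753, minus strand: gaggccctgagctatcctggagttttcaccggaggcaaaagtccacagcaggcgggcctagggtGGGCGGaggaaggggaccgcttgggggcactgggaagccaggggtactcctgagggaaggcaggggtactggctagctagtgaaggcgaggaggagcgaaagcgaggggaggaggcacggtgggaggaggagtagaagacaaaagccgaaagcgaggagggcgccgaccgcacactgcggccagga
Elovl5, chr9:77917115-77917364, plus strand: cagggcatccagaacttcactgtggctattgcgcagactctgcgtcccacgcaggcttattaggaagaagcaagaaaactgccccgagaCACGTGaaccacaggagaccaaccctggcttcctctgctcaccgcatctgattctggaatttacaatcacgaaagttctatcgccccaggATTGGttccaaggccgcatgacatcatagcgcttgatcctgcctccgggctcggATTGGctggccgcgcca
Thrsp, chr7:97417551-97417800, minus strand: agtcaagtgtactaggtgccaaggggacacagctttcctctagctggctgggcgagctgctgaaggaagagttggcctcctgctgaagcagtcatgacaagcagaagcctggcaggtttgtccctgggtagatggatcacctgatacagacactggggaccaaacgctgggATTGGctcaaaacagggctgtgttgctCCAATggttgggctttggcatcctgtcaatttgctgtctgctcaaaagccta
The Acly promoter (68.8% G and C) held 4 GC boxes and Fads2 (64.8%) held 1, whereas Elovl5 (55.6%) held an E-box and 2 CCAAT boxes and Thrsp (53.6%) held 2 CCAAT boxes. Of the 8 members with a promoter sequence, 4 held a CCAAT box (33.9% of 32851 promoters did), 2 a GC box (32.7%), 1 an E-box (6.02%) and 0 the sterol regulatory element as spelled (1.05%). The 3 genes that rose had no motif of this search in common. The letters describe these windows only. Scd1 and Scd2 had no promoter sequence here.

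Of the genes that supply and use acetyl-CoA, Acly was higher in old kidneys, whereas neither carboxylase nor Fasn passed. Acly read 7.89, 8.04, 8.04 and 7.70 in replicates 1 to 4 at 14 weeks, and 8.42, 8.54, 8.47, 8.09 and 8.25 in replicates 1 to 5 at 96 weeks. The 2 ages did not overlap, and replicate 4 at 96 weeks came closest to the young kidneys. The log2 fold change was 0.44 (standard error 0.10, adjusted p = 0.036 from limma). When single arrays were left out, the adjusted p was above 0.05 in 8 of 9 cases, up to 0.096 without replicate 4 at 14 weeks, and it was 0.020 without replicate 4 at 96 weeks. The log2 fold change itself stayed between 0.36 and 0.50 when single arrays were left out.

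Acaca, the cytosolic carboxylase that feeds Fasn, read 8.11 ± 0.17 (SD, n = 4) in young and 8.08 ± 0.14 (SD, n = 5) in old kidneys. Its 95% interval ran from 0.85-fold to 1.13-fold, and a second probe set gave a log2 fold change of 0.12 (standard error 0.18). Acacb, whose malonyl-CoA restrains the entry of fatty acids into mitochondria, read 7.58 ± 0.11 (SD, n = 4) and 7.45 ± 0.24 (SD, n = 5). The old kidneys spread more widely for Acacb, from 7.08 in replicate 3 to 7.74 in replicate 2, and the interval ran from 0.76-fold to 1.09-fold. Fasn read 7.04, 7.33, 6.86 and 7.05 in young kidneys and 7.17, 7.45, 7.17, 7.23 and 7.09 in old ones. Replicate 2 was the highest at each age, and without replicate 2 at 14 weeks the ages did not overlap. The log2 fold change of Fasn was 0.15 with all arrays (95% interval -0.06 to 0.37, adjusted p = 0.31 from limma) and 0.24 without replicate 2 at 14 weeks (95% interval 0.04 to 0.44, adjusted p = 0.14 from limma).

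**Figure D2:**
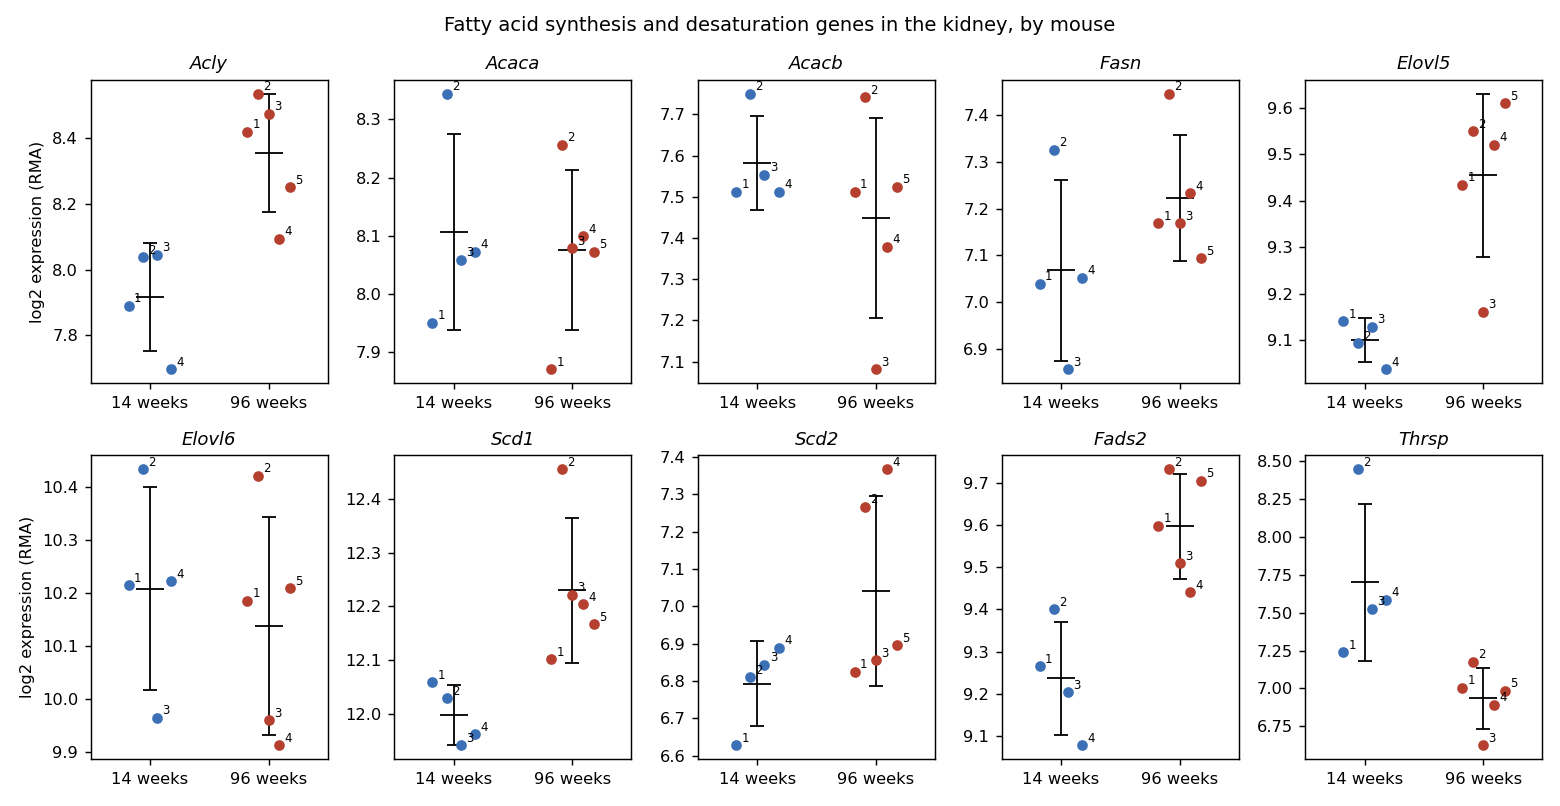
Log2 expression of the 10 genes in each kidney, 4 mice at 14 weeks (blue) and 5 at 96 weeks (red); each panel has its own vertical scale. Points are mice with their replicate number, and bars show means ± 1 SD. Old kidneys lie above all young ones for Acly, Elovl5, Scd1 and Fads2 and below them for Thrsp.

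Of the elongases, Elovl5, which lengthens polyunsaturated chains, was higher at 96 weeks, and Elovl6, which lengthens palmitate to stearate, was not. Elovl5 lay between 9.04 and 9.14 in all young kidneys (SD 0.047, n = 4) and read 9.43, 9.55, 9.16, 9.52 and 9.61 in old replicates 1 to 5 (SD 0.18, n = 5). Replicate 3 at 96 weeks was the closest to the young kidneys. The log2 fold change was 0.35 (standard error 0.085, adjusted p = 0.038 from limma), and 0.43 without that replicate (adjusted p = 0.0062 from limma). With each other array left out in turn the adjusted p was above 0.05, up to 0.10, with the log2 fold change between 0.32 and 0.37. Elovl6 read between 9.96 and 10.43 in young and between 9.91 and 10.42 in old kidneys, so that the ages overlapped over nearly their whole range. Its log2 fold change was -0.07 (95% interval -0.33 to 0.19, adjusted p = 0.71 from limma).

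Fads2, the desaturase that starts the synthesis of long polyunsaturated fatty acids, had the smallest p of the 10 genes. It read 9.27, 9.40, 9.20 and 9.08 in young kidneys and 9.60, 9.73, 9.51, 9.44 and 9.70 in old ones, without overlap. Its log2 fold change was 0.36 (standard error 0.081, adjusted p = 0.031 from limma), and 0.41 without replicate 2 at 14 weeks (adjusted p = 0.031 from limma). The adjusted p was above 0.05 without replicates 1, 3 or 4 at 14 weeks or replicates 1, 2 or 5 at 96 weeks, up to 0.086, with log2 fold changes from 0.31 to 0.37. Scd1, the main stearoyl-CoA desaturase of liver and fat, was also higher in every old kidney (12.10 to 12.46) than in every young one (11.94 to 12.06). The shift was small, 1.17-fold (95% interval 1.05-fold to 1.31-fold), and did not pass (adjusted p = 0.077 from limma). Scd2, the form of brain and other tissues, shifted less clearly, by 0.25 on the log2 scale (95% interval -0.02 to 0.52, adjusted p = 0.20 from limma). Old replicates 2 and 4 read 7.27 and 7.37 for Scd2, while the other old kidneys read 6.83, 6.86 and 6.90, beside 6.63 to 6.89 in young kidneys. Whether the probe sets of the related Scd genes share targets was not tested.

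Thrsp had the largest difference of the 10 genes and the widest spread among young kidneys. It read 7.24, 8.45, 7.53 and 7.59 at 14 weeks and 7.00, 7.18, 6.63, 6.89 and 6.98 at 96 weeks. All old kidneys lay below all young ones, and replicate 2 at 14 weeks stood well above the other young ones. The log2 fold change was -0.76 (standard error 0.21, adjusted p = 0.056 from limma). Without replicate 2 at 14 weeks the SD of the young kidneys went from 0.52 to 0.19, and the log2 fold change was -0.51 (standard error 0.12, adjusted p = 0.056 from limma). The difference was then 1.43-fold, short of 1.5-fold, with the ages still apart. Without replicate 1 at 14 weeks the adjusted p was 0.048.

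Replicate 2 at 14 weeks also held the highest values of several fat cell genes. Ucp1, the uncoupling protein that defines brown fat, read 6.88 there and between 4.15 and 4.71 in the other 8 kidneys. Cidea, a lipid droplet protein of brown fat, read 4.56 there and between 3.79 and 4.22 elsewhere. Adiponectin (Adipoq), secreted by fat cells, read 5.50 there and between 4.19 and 4.79 elsewhere, and the lipid droplet coat protein perilipin (Plin1) read 6.57 against 6.18 to 6.47. Cidec, another lipid droplet protein, read 5.96 there and between 5.38 and 5.66 elsewhere, and Cfd had no probe set of its own. Plin4 (6.14) and Acvr1c (4.40) were also highest there. Retn (5.90), leptin (Lep, 4.57) and Fabp4 (10.08) were not, as other kidneys read up to 5.93, 4.85 and 10.14. Ucp1, Cidea, Adipoq, Acvr1c and Lep lay below the 30th percentile of all genes by mean level. Over all 8 measured white fat markers, the mean centred level was 0.28 in this kidney and between -0.19 and 0.02 in the other 8, and none of the 8 or of the 2 brown fat markers passed between ages. The part of these fat markers in the Thrsp value of this kidney was not tested, and the other 3 young kidneys were still above all old ones for Thrsp.

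**Figure D3:**
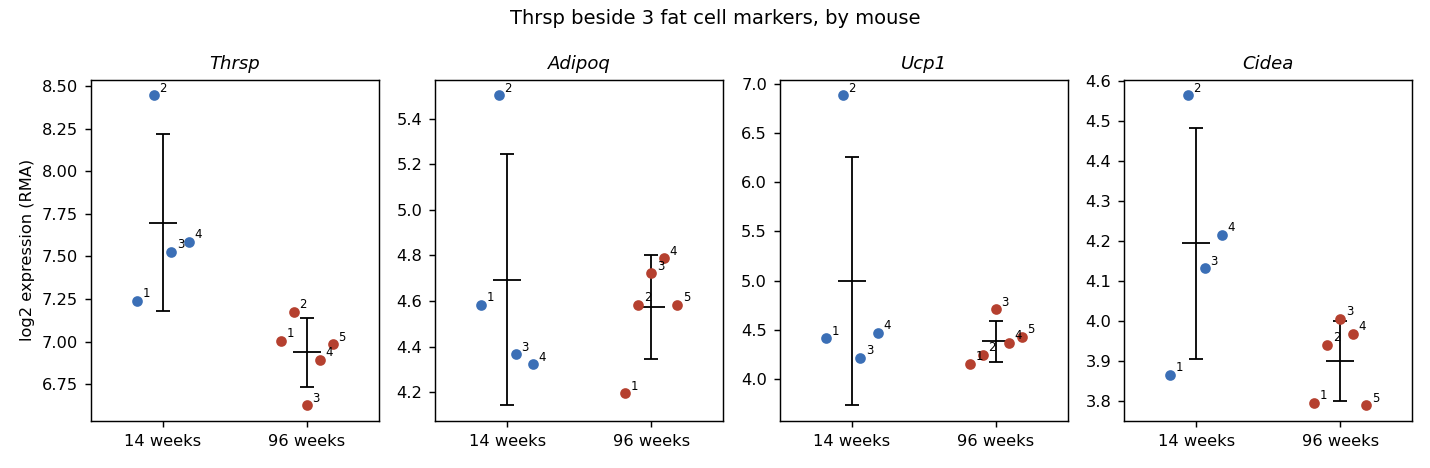
Log2 expression of Thrsp and of the fat cell markers Adipoq, Ucp1 and Cidea in each kidney (4 mice at 14 weeks in blue, 5 at 96 weeks in red; bar, mean with 1 SD; each panel has its own scale). Replicate 2 at 14 weeks is the highest point of every panel, at 8.45 for Thrsp and 6.88 for Ucp1.

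Leaving out replicate 2 at 14 weeks ended the calls of Acly and Elovl5 and that of Thrsp by the 1.5-fold rule, and turned the sign of 2 differences near 0. At an adjusted p under 0.05 in limma, only Fads2 was then higher (1 of 10, against 2.76% of all genes) and none was lower (1.19%). Acly (0.48, adjusted p = 0.054 from limma) and Elovl5 (0.35, adjusted p = 0.080 from limma) kept their log2 fold changes and no longer passed. Each of these calls was lost without any of 8 single arrays, replicate 2 at 14 weeks among them. Acaca went from -0.03 to 0.05 and Elovl6 from -0.07 to 0.00. The median log2 fold change of the 10 genes was then 0.24, and that of all genes -0.02.

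Within each age 1 mouse held most of the highest values of the 10 genes. Among young kidneys, replicate 2 was highest for 6 of 10 genes (Acaca, Acacb, Fasn, Elovl6, Fads2 and Thrsp) and lowest for none. Among old kidneys, replicate 2 was highest for 8 of 10 genes, all but Elovl5 and Scd2, and lowest for none. In this old kidney Ucp1 read 4.25 and Adipoq 4.58. Leptin (Lep, 4.85) was the highest of all 9 arrays and Acvr1c (4.26) the highest of its age, both genes of low signal. Plin1 (6.18) and Retn (5.63) were the lowest of all 9 arrays, and the mean over the white fat markers was 0.02. This old kidney had the lowest mean of macrophage markers of its age (-0.12, against up to 0.96). Its means were the highest of its age for proximal tubule (0.16), thick limb (0.08), distal and collecting duct (0.13) and podocyte (0.38) markers. The part of these markers in its values was not tested. Shared numbers did not pair the mice of the 2 ages. Deviations from the age means were most alike for Acacb and Elovl6 (Pearson's r = 0.78), Elovl6 and Fads2 (0.78) and Acaca and Fasn (0.75), and least alike for Acly and Scd2 (-0.29), over 9 arrays. Of the 45 pairs of genes, 4 had a correlation below 0, and the arrays share these high and low mice.

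**Figure D4:**
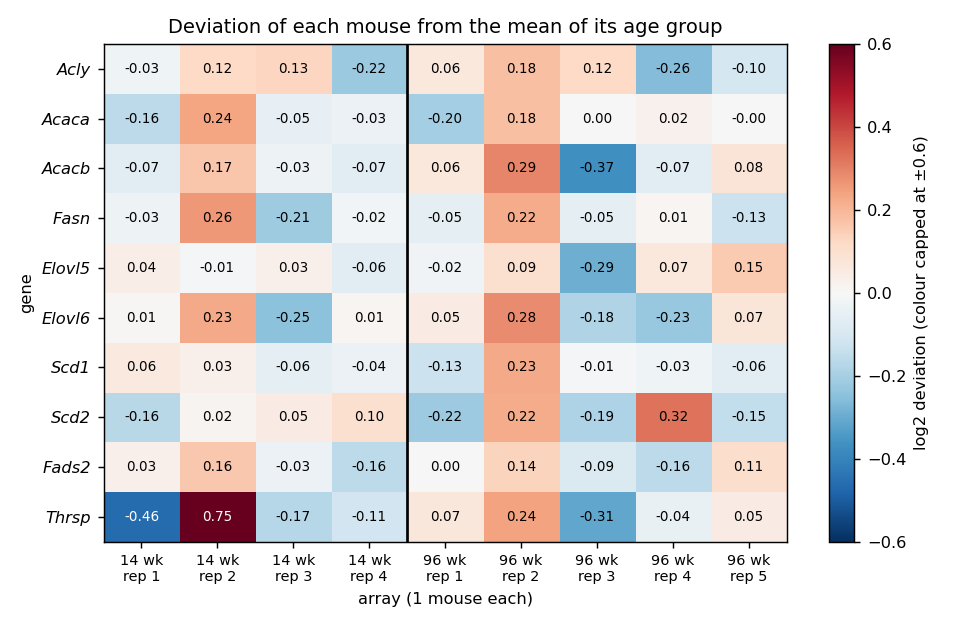
Deviation of each mouse from the mean of its age group, in log2 units, for the 10 genes (rows) and the 9 arrays (columns, 4 at 14 weeks left of the line and 5 at 96 weeks right of it). The column of replicate 2 is mostly red at both ages, with its largest value, 0.75, for Thrsp at 14 weeks.

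Differences between genes of 1 role were tested on the log ratio within each array, in 7 pairs, by an exact two-sided permutation test over the 126 ways to divide the arrays. The old to young difference of Acly exceeded that of Acaca by 0.47 and that of Acacb by 0.57 on the log2 scale (exact permutation test, p = 0.016 each, the smallest p this design allows; adjusted p = 0.056 over the 7 pairs). For Elovl5 and Elovl6 the gap was 0.43 (exact permutation test, p = 0.032, adjusted p = 0.074). Acaca and Acacb (0.10), and the 3 pairs of Scd1, Scd2 and Fads2 (-0.13 to -0.02), had unadjusted p-values of 0.19 or more in the exact permutation test. No pair passed after adjustment, and the pairs were formed with the values of the genes known. An adjusted p under 0.05 was out of reach unless more pairs had that smallest p, so that not passing decides little. The log ratios of Acly to Acaca and of Acly to Acacb did not overlap between the ages.

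The rest of the pathway was described with 52 measured genes of 57 listed. Each gene was read by its brightest probe set. The methods' t-test with adjustment gave 2 higher and 0 lower. At an adjusted p under 0.05 in limma, 6 were higher (4.31% of all genes) and 0 lower (2.40%). Among the 6 is Mid1ip1, whose probe sets disagree, whose brightest one was picked through the old kidneys, and which is described last. At an unadjusted p under 0.05, 11 were higher (13.3% of all genes) and 3 lower (15.3%), and the median log2 fold change was 0.06. The acyl-CoA synthetase Acsl5, which activates long-chain fatty acids, rose by 0.37 on the log2 scale (adjusted p = 0.012 from limma), from 9.72 to 10.01 in young to 10.12 to 10.31 in old kidneys. It passed in 20 of 21 alternatives, all but the replicate block. Mid1ip1 passed in 18, with the limit on its probe sets given below. The other calls of the list were less stable, with Mecr passing in 9, Stk11 in 8, Cyb5r3 in 7 and Hsd17b12 in 5. Mecr, of mitochondrial fatty acid synthesis, rose by 0.44 (adjusted p = 0.040 from limma). Hsd17b12, the ketoacyl-CoA reductase of chain elongation, rose by 0.28 (adjusted p = 0.042 from limma), and Cyb5r3, which passes electrons to the desaturases through cytochrome b5, by 0.28 (adjusted p = 0.049 from limma). Stk11, the kinase upstream of AMP-activated protein kinase, which restrains lipid synthesis, rose by 0.35 (adjusted p = 0.040 from limma).

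Mid1ip1, the paralog of Thrsp that helps acetyl-CoA carboxylase polymerise, gave opposite answers with its 2 probe sets. The one brighter by its mean over all arrays, annotated with the RefSeq transcripts, rose by 0.29 (adjusted p = 0.017 from limma), from 7.23 to 7.43 in young to 7.51 to 7.66 in old kidneys. The other, annotated with cDNA clones only, stood 0.35 lower at 96 weeks (log2 fold change -0.35, standard error 0.059, adjusted p = 0.015 over all probe sets), from 7.45 to 7.70 in young to 7.17 to 7.28 in old kidneys. The ages did not overlap with either. In every young kidney the probe set of cDNA clones was the brighter, and in every old kidney the RefSeq one was. The choice of the brightest thus rested on the old kidneys in which it was high, and its rise is no support for a direction. No direction is therefore given for the gene.

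Transcription factors of lipid synthesis did not pass. Srebf1 had a log2 fold change of 0.00 (95% interval -0.15 to 0.15), Mlxipl, the carbohydrate response factor ChREBP, of -0.15 (-0.42 to 0.12), Nr1h3, the liver X receptor alpha, of 0.12 (-0.01 to 0.26) and Pparg, the fat cell regulator, of 0.11 (-0.06 to 0.29). By part of the list, 0 of 6 genes of carbon and NADPH supply passed, 1 of 11 other elongation genes, 1 of 8 other desaturation genes, 1 of 5 mitochondrial genes, 1 of 3 acyl-CoA synthetases and 2 of 19 regulators, all upwards by the brightest probe set, with Mid1ip1 among the regulators. Among those with the smallest p that did not pass were Pgd, an NADPH-making dehydrogenase of the pentose phosphate pathway (0.47, adjusted p = 0.052 from limma), the citrate carrier Slc25a1 (0.25, adjusted p = 0.071 from limma), the desaturase Fads3 (0.29, adjusted p = 0.053 from limma) and Elovl4, the elongase of very long chains (-0.24, adjusted p = 0.069 from limma). Elovl4 lay below the 30th percentile of all genes by mean level. Second by p in their parts were Oxsm (-0.14, adjusted p = 0.27 from limma), a synthase of mitochondrial fatty acids, and Acsl4 (0.14, adjusted p = 0.20 from limma), which prefers arachidonic acid.

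**Figure D5:**
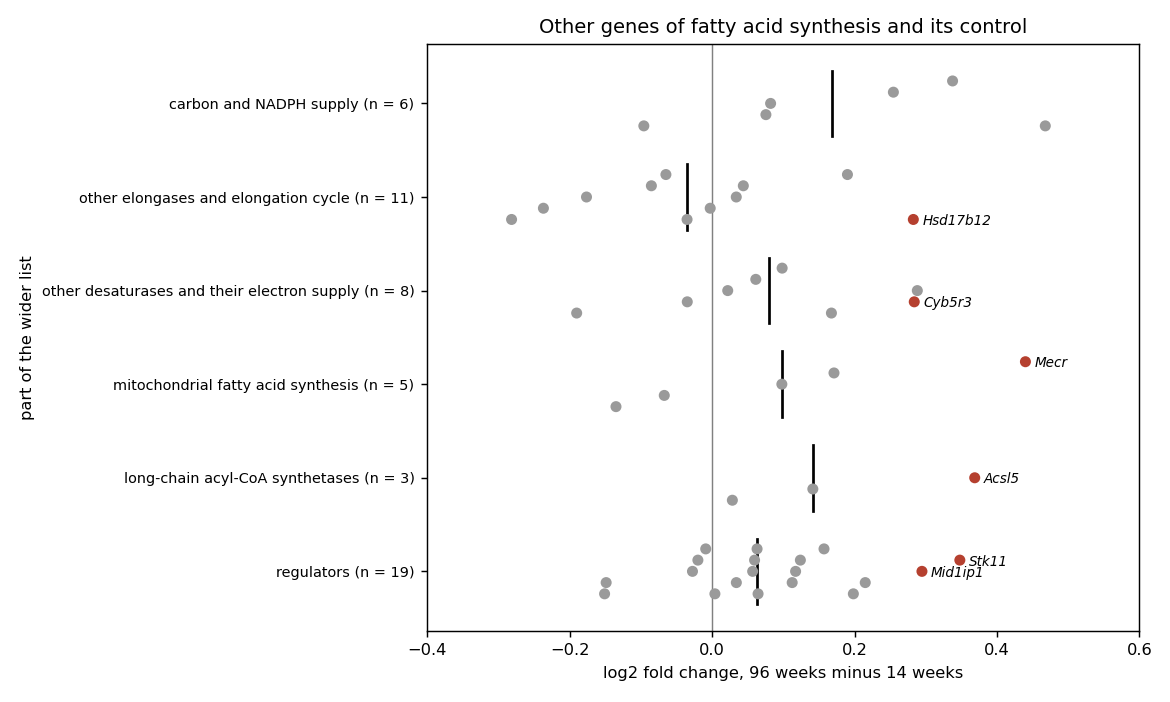
Log2 fold change (96 weeks minus 14 weeks) of the 52 other genes of fatty acid synthesis and its control, by role. Named red points had an adjusted p below 0.05 in limma, grey points did not, and black lines are medians. Only red points on the right are seen, between 0.28 and 0.44, and Mid1ip1 is drawn by the probe set brighter over all arrays.

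Macrophage markers moved with age as well. In limma, 3 of 10 macrophage genes passed after adjustment, all upwards (4.31% of all genes were higher). These were Csf1r (log2 fold change 0.45), Lyz2 (2.54) and Tyrobp (1.17). At an unadjusted p under 0.05, 8 of the 10 were higher (13.3% of all genes) and 0 lower (15.3%). The mean centred level of the 10 macrophage genes lay between -0.52 and -0.38 in young kidneys and between -0.12 and 0.96 in old ones. Replicates 3 and 4 at 96 weeks were highest (0.85 and 0.96). Without these 2 kidneys the log2 fold changes of Acly, Fads2 and Elovl5 were 0.48, 0.44 and 0.43. That of Thrsp was -0.64 (adjusted p = 0.15 from limma), against -0.76 with all arrays. The 3 old kidneys kept still had macrophage means (-0.12 to 0.16) above all young ones, and the part of macrophages in these differences was not tested. None of the 8 proximal tubule, 3 thick limb, 7 distal and collecting duct, 2 podocyte, 5 adrenal cortex or 4 endothelial markers passed after adjustment. At an unadjusted p under 0.05, 4 of these tubule markers were lower (15.3% of all genes) and 0 higher (13.3%). The 4 were Slc5a12 of the proximal tubule (-0.34), Kcnj1 of the thick limb (-0.29) and Calb1 (-0.47) and Scnn1g (-0.22) of the distal segments. Every old kidney lay below every young one in 2 of 8 proximal tubule markers (Slc5a12 and Kap). The same held for 1 of 3 thick limb markers (Kcnj1) and 1 of 7 distal and collecting duct markers (Calb1), against 5.79% of all genes. The part of tubule markers in the values of the 10 genes was not tested.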

How the data were processed

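Kidney RNA of 9 mice was hybridised to 1 Affymetrix Mouse Gene ST array each. The authors ran RMA, which includes quantile normalization, in Power Tools 1.12.0 (Affymetrix), and the deposited values are log2 expression per probe set (35557). Probe sets with 1 symbol (21789) were kept, and the brightest stood for a gene. Ages were compared with limma 3.58.1 (lmFit, eBayes) in R 4.3.3, with Benjamini-Hochberg adjustment over 19938 genes and no filter. The members and lists were chosen with earlier results of these data known. Named were all 10 members, genes of the wider list that passed, the 2 smallest p-values of each of its parts, 5 regulators and the defining fat markers. The test was checked on simulated data. The 21 alternatives covered the test, weights, filtering, scaling, probe sets, the replicate block and left-out arrays. Correlations between arrays ran from 0.978 to 0.992, and precision is limited by their number. Promoters came from RefSeq (GRCm38.p6), and motifs were searched with Python 3.11.15.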

Additional observations from a re-analysis of the deposited data

Results flagged for a closer look

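Of 25 genes whose values by array are used here, 5 had 1 young kidney far from the other 3, in 50 groups of arrays looked at, where chance gives about 1 in 20. Ucp1 in replicate 2 at 14 weeks was the highest (6.88, a gap of 0.904 of the range). In replicate 4 at 14 weeks, Cyb5r3 was highest (8.99, a gap of 0.856 of the range), Mecr lowest (7.33, 0.899) and Pparg lowest (6.42, 1.00). Srebf1 was lowest in replicate 1 at 14 weeks (6.72, 1.00). The other 3 young kidneys shared 1 value for Srebf1 (6.75) and for Pparg (6.48), so that the gap is the whole range there although it is small. None of the 10 members met this criterion.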

How the results depend on the processing

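Acly, Elovl5, Fads2, Fasn, Scd1 and Scd2 stayed above 0 and Thrsp below 0 in all 21 alternatives, with Thrsp between -0.92 and -0.40. Acly passed in 9 of them (adjusted p 0.020 to 0.10), Elovl5 in 8 (0.0062 to 0.11), Fads2 in 12 (0.018 to 0.086) and Thrsp in 2 (0.044 to 0.15). The number of the 10 genes that were higher fell from 3 to 0 by the methods' t-test and after a repeated quantile normalization, and to 1 after cyclic loess and with all probe sets tested singly, and lay between 0 and 2 without single arrays. The number lower was 1 (Thrsp) without genes below the 30th percentile, and between 0 and 1 without single arrays. The number past 1.5-fold downwards was between 0 and 1 without single arrays, and 0 without replicate 2 at 14 weeks and replicates 3 and 4 at 96 weeks together. In the wider list the number higher by the brightest probe set, 6 with all arrays (Mid1ip1, whose probe sets disagree, included), was 2 by the methods' t-test, after a repeated quantile normalization, after cyclic loess and with all probe sets tested singly, 0 with the replicate block, and between 1 and 6 without single arrays. Of this list 1 gene was lower with array weights and 1 after a repeated quantile normalization, and 1 was past 1.5-fold upwards without the 3 arrays together. Differences near 0 changed sign. Acaca was 0.0458 with the mean of its probe sets and 0.0394 without the 3 arrays, and ran from -0.0831 to 0.0483 when single arrays were left out. Acacb was 0.0103 without replicates 3 and 4 at 96 weeks and 0.0665 without the 3 arrays. Elovl6 was 0.0635 without replicates 3 and 4 and 0.1388 without the 3 arrays, and ran from -0.1527 to 0.0043 when single arrays were left out. The cause of these changes was not tested. Mice with the same number did not deviate together (correlations -0.04 to 0.08), so that the replicate block joins mice that share only a number, and replicate 5 at 96 weeks, which has no young partner, adds nothing to the age difference there. With it 2 of the 10 genes (Acly and Fads2) were higher. Over all genes, 279 were higher and 89 lower with the block, and 273 and 94 by the methods' t-test, against 860 and 479.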

Other observations

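For each of the 10 genes, the genes most like it were sought by the correlation of deviations from the age means over the 9 arrays, among 19938 genes. These are descriptions, since a few mice set them and so many genes were searched over so few arrays. Each of the 10 genes had such close neighbours. Closest to Fads2 were Dcxr (Pearson's r = 0.985), Irf2bp2 (0.970) and Map2k2 (0.953), with log2 fold changes of 0.36, 0.36 and 0.34. Irf2bp2 (adjusted p = 0.030) and Map2k2 (adjusted p = 0.021) passed in limma. Dgat1, the enzyme of the last step of triglyceride synthesis, was among the closest to Acly (0.947, after LOC665004 at 0.958 and Cep85l at 0.954) and differed by 0.10 between ages on the log2 scale (limma, adjusted p = 0.32). Closest to Elovl5 were Ptgfr, the prostaglandin F receptor (0.986), Them7 (0.982) and Nceh1, a cholesterol ester hydrolase (0.977). For Acaca they were Trank1 (0.975), Cend1 (0.948) and Exd1 (0.933). For Acacb they were Eps8 (0.976), Plcd4 (0.973) and Krt1 (0.973). Fasn was nearest to Specc1l (0.979), 6230400D17Rik (0.964) and Rgs13 (0.961), and Elovl6 to Tmem150c (0.964), Insrr (0.962) and Sp6 (0.956). Scd1 was nearest to Mdfic (0.967), Rprd1b (0.958) and P4htm (0.957), and Scd2 to Trafd1 (0.963), Cul2 (0.958) and Uba6 (0.947). Thrsp was nearest to 3110021A11Rik (0.983), 4930571K23Rik (0.970) and Pou4f3 (0.968). Of these 30 genes, Irf2bp2 and Map2k2 alone passed between ages in limma after adjustment, both upwards. Of all genes tested, 4.31% were higher and 2.40% lower.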
